A study of Mus musculus with 18 samples.

Results

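The effect of reconstituted high-density lipoprotein (rHDL) on mouse macrophages under lipopolysaccharide (LPS) was compared between cells that had and had not first been loaded with cholesterol. The quantity tested for each gene was the difference between 2 differences on the log2 scale: rHDL against no rHDL in loaded cells, minus rHDL against no rHDL in unloaded cells. It is called the interaction here. A positive interaction means that rHDL moved the gene further up, or less far down, in loaded cells, and a negative one the opposite. The comparison used 12 of the 18 libraries in the series, and 8965 genes with enough counts were tested.

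C57BL/6J mice gave the bone marrow, which was differentiated into macrophages for 7 days in medium conditioned by L929 cells. The 4 groups, of 3 libraries each, all ended with LPS: LPS alone (LPS_Ctrl), rHDL then LPS (HDL_LPS), cholesterol loading then LPS (CL_Ctrl_LPS), and loading, rHDL and then LPS (CL_HDL_LPS). The rHDL was CSL111, particles that hold 150 parts of soybean phosphatidylcholine for each part of APOA1, given for 20 h on day 8 and washed off before LPS. Loading was done with liposomes of POPC, a phosphatidylcholine, and cholesterol, and came before rHDL. No group had rHDL without LPS, so effects of rHDL on resting cells and on the response to LPS cannot be told apart in these libraries. The sources used here do not give the length or dose of LPS. The labels do not say whether the 3 libraries of a group came from separate cultures or animals, so the tests measure the spread between these libraries, which may be technical.

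HDL takes up cholesterol that cells release through the transporters Abca1 and Abcg1. Cells sense their sterol content in 2 ways. When sterols are plentiful, oxysterols activate the nuclear receptor LXR, which switches on the exporters. When sterols of the endoplasmic reticulum (ER) membrane run low, the transcription factor SREBP2 is released and switches on cholesterol synthesis. Membrane cholesterol also bears on Toll-like receptor signalling, on ER folding capacity and on lysosomes, so lists for those systems were described beside the sterol genes.

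Library totals ran from 9464916 to 15607889 counts, and the rHDL group without loading was the deepest (12666846 to 15607889). On the first principal component, which carried 50.6% of the variance, the 3 libraries of that group stood at 31.7 to 42.2 and the other 9 at -18.7 to -4.45. So the 3 libraries with rHDL and no loading stood apart from all the others, loaded or not. Of 10 macrophage markers, 9 passed the count filter and Itgam was listed at 0 in all 12 libraries. Their summed level was 12700 to 15300 CPM (counts scaled to library size) with rHDL and no loading, against 19700 to 24300 CPM in the other 9 libraries. Lyz2 weighs most in this sum, at 5690 to 14500 CPM over the 12 libraries, with Emr1 next at 2170 to 3540 CPM. The sum therefore does not show a joint fall of the markers. Fewer macrophages and less marker RNA per macrophage cannot be told apart in bulk RNA. Of 11 neutrophil markers in the table the summed level was 6.62 to 9.61 CPM with rHDL and no loading and 17.9 to 30.0 CPM elsewhere, with S100a9, Mpo and Cxcr2 at 0. Lymphoid markers summed to 3.20 to 5.34 CPM over all 12 libraries, and Cd3e, Nkg7, Ncr1 and Cd8a were at 0. Stromal markers summed to 108 to 135 CPM with rHDL and no loading and 35.1 to 86.2 CPM elsewhere, with Pdgfrb, Lepr and Pecam1 at 0. Mast, erythroid and megakaryocyte markers summed to 32.4 to 43.4 CPM against 54.6 to 102 CPM, and dendritic markers to 359 to 447 CPM against 434 to 611 CPM. The part of these shifts in the results that follow was not tested. A 0 need not mean that the RNA was absent, because annotated transcripts whose exons lie wholly within others were at 0 as well. Whether this applies to Itgam and the other markers at 0 was not tested.

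Loading changed the effect of rHDL on 2704 of 8965 genes (30.2%), 1432 of them with a positive interaction (16.0%) and 1272 with a negative one (14.2%), at an adjusted p under 0.05. The genes with a positive interaction had a median rHDL effect of -0.65 without loading and 0.13 after it, on the log2 scale. For those with a negative interaction the medians were 0.50 and -0.14. The interaction reached at least 1 on the log2 scale for 525 positive and 294 negative genes. With libraries scaled by their totals alone, the median over all genes moved from -0.03 to -0.20 and the calls split into 1016 positive and 2124 negative, against 1432 and 1272. Directions below are relative to the TMM scale. The list counts below are to be read against 16.0% positive and 14.2% negative over all genes, and counts near these shares are not results about a list.

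**Figure D1:**
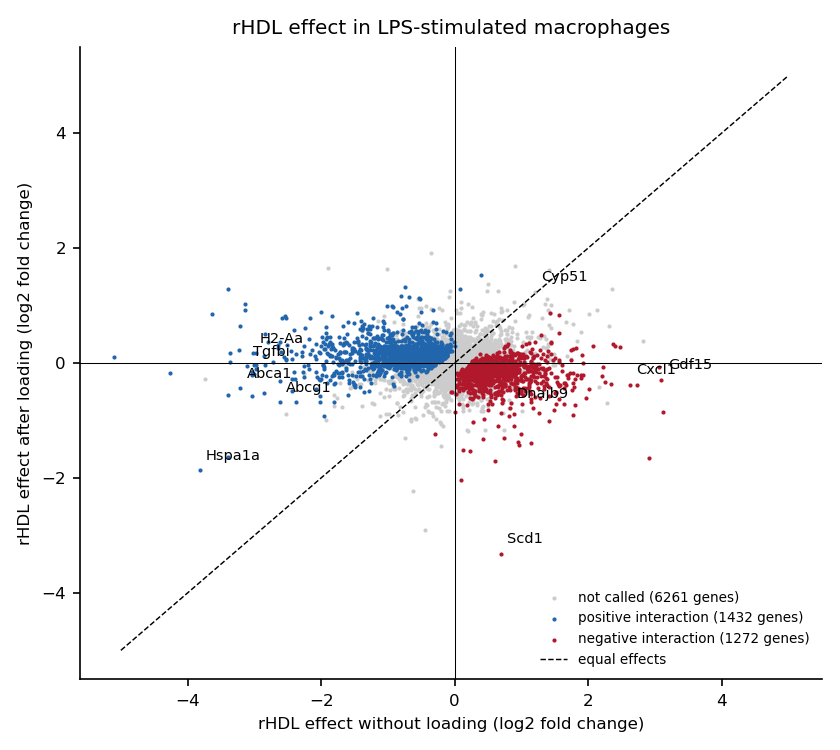
Each point is 1 of 8965 genes, with the rHDL effect without loading on the x axis and after loading on the y axis, both as log2 fold changes. The dashed line marks equal effects. Genes with a called interaction (1432 blue, 1272 red) lie in a flat band along the x axis: their effects were wide without loading and narrow after it.

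The effects of rHDL in the 2 loading states share no library. Their p-values were adjusted separately, so effects of like size and error can pass in 1 state only, as for Il1b below. At an unadjusted p under 0.05 the counts were 4046 genes without loading and 1044 after it. Without loading rHDL changed 3275 genes (36.5%), 1621 upward (18.1%) and 1654 downward (18.4%). After loading it changed 91 (1.02%), 38 upward (0.424%) and 53 downward (0.591%). The count of 91 moved with single libraries: leaving out 1 library gave 30 to 123, and it was over 1.5 times lower without CL_Ctrl_LPS 1, 2 or 3 (46, 30 and 35) or CL_HDL_LPS 2 or 3 (55 and 56). With no low-count filter it was 176. Counts of rHDL effects given below for loaded cells rest on these 91 calls, in a fit without a replicate block. More genes passed after loading with such a block, as given in the last section. Where none is said to change in loaded cells, none passed the test, which does not mean that no effect was present. The 1621 genes raised without loading had a median of 0.49 there and -0.06 after loading. The 1654 lowered genes had medians of -0.64 and 0.08, against 0.03 and 0.00 over all genes. Both states called 61 genes, 1.86% of the calls without loading and 67.0% of those after loading, and 33 of the 61 moved in opposite directions. Leaving out 1 library gave 23 to 92 shared calls, 13 to 61 of them opposite. The authors' deposited comparisons listed 1609 genes without loading and 47 after it. These 2 deposited lists shared 30 genes, 16 of them with opposite signs.

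An interaction on the log2 scale compares ratios, so a gene can differ in ratio and not in absolute level. Of the 2704 called genes, 4 (0.148%) had the opposite sign when the same difference was taken on mean CPM. Abcg1, an exporter of cholesterol to HDL, is an example: its interaction was 1.94 ± 0.11 (SE), while on mean CPM the difference between its rHDL effects was -188 CPM.

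Most LXR targets on the list rose with loading, and rHDL lowered more of them in unloaded than in loaded cells. Of 13 tested members of the LXR list, 6 had a positive interaction and 1, Scd1, a negative one. rHDL lowered 9 of the 13 without loading and raised 1. After loading it lowered 5, and loading itself raised 8 (of all genes, loading without rHDL changed 8.57%, 3.99% upward and 4.57% downward). The median rHDL effect over the list was -0.91 without loading and -0.26 after it.

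Abca1 (mm10 chromosome 4, 53030789 to 53159895), which passes cholesterol to lipid-poor APOA1, stood at 591, 654 and 563 CPM with LPS alone and at 58.0, 69.7 and 67.3 CPM after rHDL. In loaded cells it stood at 1710, 1800 and 1720 CPM without rHDL and at 1010, 1440 and 1400 CPM with it. The 4 groups did not overlap, and the lowest value in the loaded rHDL group was above all 6 unloaded libraries. The rHDL effect was -3.21 ± 0.13 without loading and -0.44 ± 0.11 after it (adjusted p = 0.0944), giving an interaction of 2.77 ± 0.16 (adjusted p = 1.71e-07). Abcg1 (chromosome 17, 31057694 to 31117981) fell from 139, 128 and 133 CPM to 21.4, 21.9 and 22.1 CPM without loading. After loading it fell from 784, 780 and 839 CPM to 481, 467 and 554 CPM, so its rHDL effects were -2.62 ± 0.08 and -0.68 ± 0.07, both called.

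The other members with a positive interaction were Mylip, Pltp, Apoe and Apoc2, and 6 of the 13 were not called. Among those 6, Arl4c, a small GTPase, fell by 1.12 on the log2 scale without loading and by 0.92 after it, with an interaction of 0.20 ± 0.13 (adjusted p = 0.271). Lpcat3, a phospholipid acyltransferase, had rHDL effects of -0.18 ± 0.08 and -0.47 ± 0.08 and an interaction of -0.29 ± 0.11 (adjusted p = 0.0597). Mylip, the ubiquitin ligase that degrades the LDL receptor, had an interaction of 1.11 ± 0.11, and rHDL lowered it in both states. Its fall after loading (adjusted p = 0.0251) was not called without CL_Ctrl_LPS 1, 2 or 3, CL_HDL_LPS 2 or LPS_Ctrl 3. Pltp, the phospholipid transfer protein, fell by 1.23 on the log2 scale without loading and had a value of -0.04 ± 0.06 after it, with an interaction of 1.19 ± 0.09. Apoe, the apolipoprotein that macrophages secrete, had an interaction of 1.15 ± 0.17, with rHDL effects of -0.91 ± 0.12 and 0.24 ± 0.12. Apoc2, the cofactor of lipoprotein lipase, stood at 25.9, 13.7 and 18.1 CPM with LPS alone and at 3.86, 2.58 and 3.46 CPM after rHDL. Its loaded libraries held 21.0 to 34.0 CPM whether rHDL was given or not, and its interaction was 2.60 ± 0.32. Loading without rHDL did not pass the test for Apoe (adjusted p = 0.505) or Apoc2 (adjusted p = 0.132).

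Scd1, the desaturase that makes oleate, is an LXR target and a SREBP target at once, and it went the other way. It stood at 2.66, 2.36 and 3.27 CPM with LPS alone, at 4.55, 3.76 and 5.04 CPM after rHDL, at 22.8, 26.2 and 23.6 CPM after loading, and at 1.64, 2.33 and 3.24 CPM after loading and rHDL. The loaded libraries without rHDL stood above all 9 others. The rHDL effect was 0.69 ± 0.21 without loading and -3.32 ± 0.18 after it, both called, an interaction of -4.01 ± 0.28 (adjusted p = 4.74e-07). The rise without loading had an adjusted p of 0.0196. Without LPS_Ctrl 1 or 2 or HDL_LPS 3, no LXR list member, Scd1 included, was called in opposite directions.

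**Figure D2:**
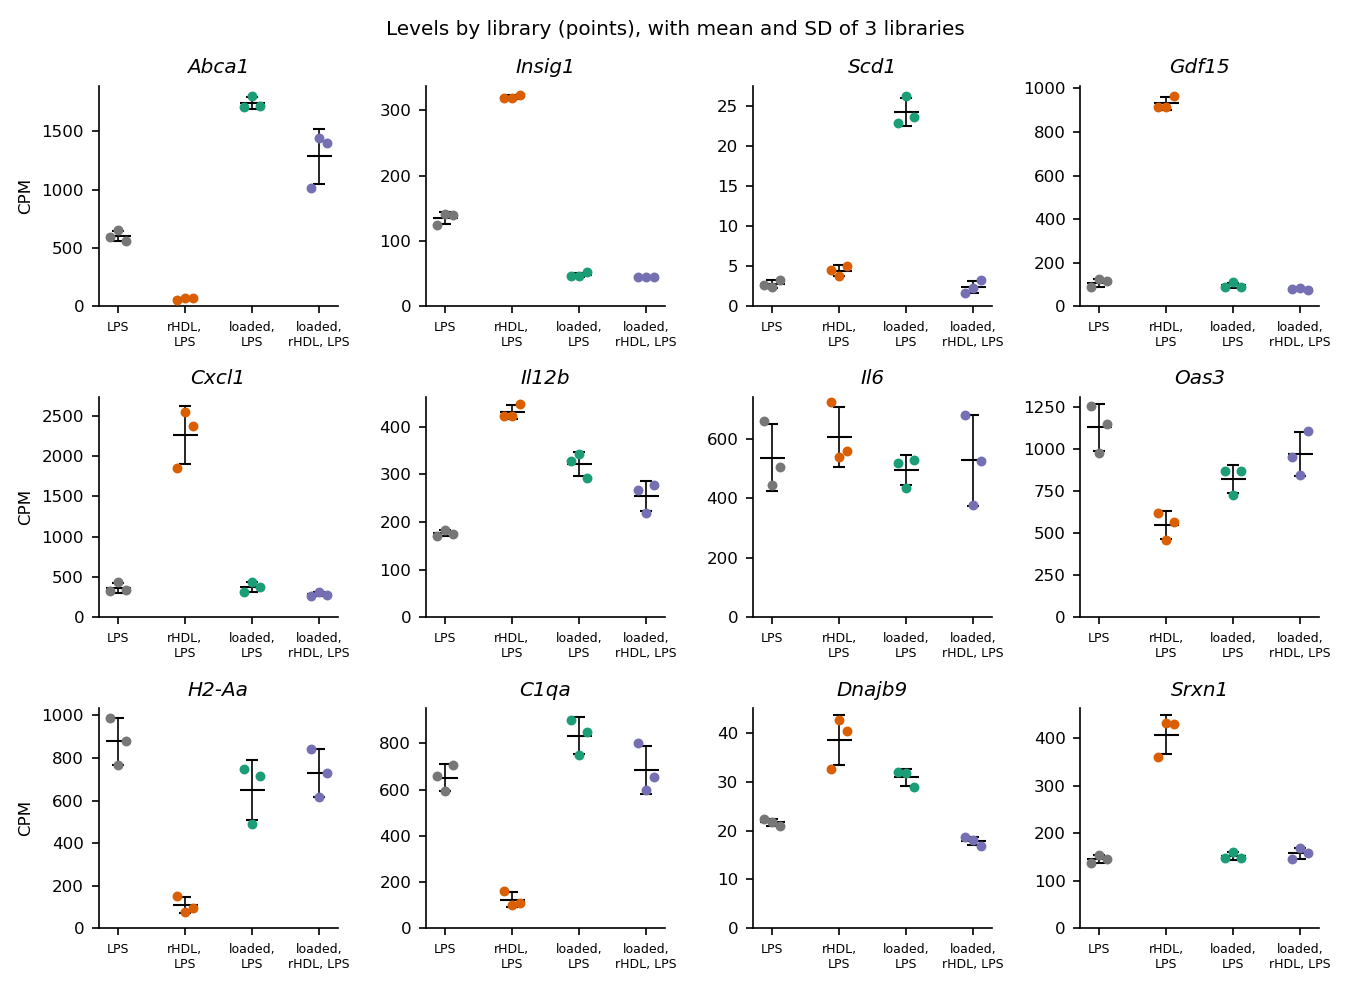
Levels in CPM on linear axes that start at 0, for 12 genes, with 1 point per library, a horizontal bar at the mean and a vertical bar of 1 SD (n = 3). For Gdf15, Cxcl1, Insig1 and Srxn1 the 3 libraries with rHDL and no loading lie above all 9 others, and for H2-Aa, C1qa, Oas3 and Abca1 below them. Il6 overlaps in every group.

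Cholesterol synthesis kept part of its response to rHDL in loaded cells. Of 19 tested enzymes rHDL raised 17 without loading and 8 after it, with medians of 1.34 and 0.47 on the log2 scale. Loading without rHDL lowered 11 of the 19. The interaction was negative for 8 and positive for none, with a median of -0.56. Lss, which closes the sterol rings, rose from 10.4, 17.2 and 12.9 CPM to 43.6, 42.4 and 46.9 CPM without loading. Loaded libraries held 4.48 to 7.85 CPM without rHDL and 4.49 to 6.22 CPM with it, an interaction of -1.96 ± 0.28 (adjusted p = 0.000149). Sqle, which oxidises squalene, rose in both states, by 1.56 ± 0.12 and 0.83 ± 0.16, and had an interaction of -0.72 ± 0.20.

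For Cyp51 and Idi1, picked after their values were seen, the 2 rHDL effects differed by less than the error of the difference. They do not stand for all uncalled enzymes: over the 19 the interaction ran from -1.96 to 0.20, with a median of -0.56. Cyp51, the lanosterol demethylase, stood at 116, 150 and 140 CPM with LPS alone and 329, 297 and 307 CPM after rHDL, and at 14.9, 16.1 and 13.2 CPM after loading and 34.5, 38.2 and 31.9 CPM after loading and rHDL. Both rises passed the test (1.20 ± 0.10 and 1.24 ± 0.12). The interaction was 0.05 ± 0.15 (adjusted p = 0.847), a value whose sign changed in 4 of the 23 alternative settings. Loaded cells given rHDL nevertheless held less Cyp51 than unloaded cells without it, in every library. Idi1, the isopentenyl isomerase, likewise rose by 1.42 ± 0.14 and by 1.62 ± 0.26, with an interaction of 0.20 ± 0.29.

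Insig1, which holds SREBP2 in the ER when sterols are plentiful and is itself a SREBP target, differed from Cyp51. It stood at 124, 141 and 140 CPM with LPS alone, at 319, 318 and 323 CPM after rHDL, at 46.1, 46.9 and 52.1 CPM after loading, and at 44.9, 44.2 and 45.2 CPM after loading and rHDL. The rHDL effect was 1.25 ± 0.07 without loading and -0.11 ± 0.07 after it, and the interaction was -1.36 ± 0.10 (adjusted p = 6.17e-07). With Mylip at 1.11 it was 1 of 2 called genes among 6 tested regulators of SREBP2 and LDL uptake.

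Fatty acid synthesis genes lay on the negative side as well. Of 11 tested, 7 had a negative interaction and 1, Acsl1, a positive one (0.87 ± 0.14). Acsl1 activates long-chain fatty acids. The median rHDL effect was 0.50 without loading, where 7 rose, and -0.35 after it, where Scd1 and Scd2 fell. Fasn, the fatty acid synthase, stood at 43.6, 76.9 and 55.6 CPM with LPS alone and 147, 207 and 197 CPM after rHDL, and at 34.0, 49.7 and 36.1 CPM and 20.1, 42.8 and 31.0 CPM in the corresponding loaded groups. Its interaction was -1.99 ± 0.34 (adjusted p = 0.00065). Fads1, the delta-5 desaturase, had an interaction of -1.59 ± 0.21.

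Genes of cholesterol handling and lipid droplets split, with 6 positive and 7 negative interactions among 19. Ch25h makes the oxysterol 25-hydroxycholesterol. It stood at 382, 319 and 333 CPM with LPS alone and at 128, 89.0 and 94.3 CPM after rHDL, against 206 to 227 CPM and 146 to 218 CPM in the loaded groups, which overlapped. Its interaction was 1.49 ± 0.20. Dgat2, which forms triglyceride for lipid droplets, fell by 1.42 on the log2 scale without loading and had a value of 0.25 ± 0.12 after it (interaction 1.68 ± 0.19).

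In the unfolded protein response (UPR), rHDL raised genes in unloaded cells and lowered genes in loaded ones. The response raises chaperones and folding enzymes when proteins accumulate unfolded in the ER. Of 22 tested members, rHDL raised 13 and lowered none without loading (median 0.34), and lowered 10 and raised none after loading (median -0.38). Loading without rHDL raised 12 (median 0.39). The interaction was negative for 15 of 22 and positive for none, with a median of -0.67. Of the 33 genes called in opposite directions over all genes, 9 were members. The other lists held 2 (ATF4 stress response) or 1 (Scd1, on both the LXR and the fatty acid list) of them, or none.

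Many UPR promoters carry the ER stress element, read as CCAAT, 9 bases of any kind, then CCACG. Promoters of 3 members are shown because their transcripts moved together and their promoters hold the element in both orientations. They are the 250 bases before the RefSeq start in GRCm38.p6: Calr at chr8:84846932-84847181 on the minus strand, Dnajc3 at chr14:118937682-118937931 and Creld2 at chr15:88819396-88819645 on the plus strand. Capitals mark the outer parts of the element, which reads CGTGG, 9 bases, ATTGG when it lies on the opposite strand, as in Calr and Creld2.
Calr: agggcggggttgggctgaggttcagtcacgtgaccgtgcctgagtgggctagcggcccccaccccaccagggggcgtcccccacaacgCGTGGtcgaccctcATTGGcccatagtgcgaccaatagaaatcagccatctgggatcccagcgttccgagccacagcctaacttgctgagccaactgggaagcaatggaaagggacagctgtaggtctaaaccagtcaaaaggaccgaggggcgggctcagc
Dnajc3: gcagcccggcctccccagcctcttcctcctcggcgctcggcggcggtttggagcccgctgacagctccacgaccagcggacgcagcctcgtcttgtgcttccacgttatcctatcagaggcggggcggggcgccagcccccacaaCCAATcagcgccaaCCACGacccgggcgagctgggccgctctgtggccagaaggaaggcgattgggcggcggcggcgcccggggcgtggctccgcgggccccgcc
Creld2: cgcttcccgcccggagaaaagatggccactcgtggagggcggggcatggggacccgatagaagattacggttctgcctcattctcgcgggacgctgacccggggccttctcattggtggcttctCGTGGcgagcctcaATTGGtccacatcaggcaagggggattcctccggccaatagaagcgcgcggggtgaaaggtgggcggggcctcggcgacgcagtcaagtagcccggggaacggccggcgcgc
The element lay 162 to 144 bases before the start in Calr, 105 to 87 in Dnajc3 and 126 to 108 in Creld2. Of 27 genes on the list 23 had a promoter in the RefSeq table (250 bases before to 50 after the start), and 9 of these (39.1%) held the element on either strand, against 37 of 27025 gene symbols (0.137%). CCACG alone, which is a part of the element, was in 20 of the 23 (87.0%) and in 35.5% of all promoters. Neither TGACGTG (1 of 23, against 2.22%) nor TCACCCC, a sterol element core (2 of 23, against 5.61%), was as frequent. Of 16 promoters of cholesterol synthesis genes none held the ER stress element. These are matches of letters, not tests of binding.

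Dnajb9 is an ER co-chaperone (chromosome 12, 44205897 to 44210068). It stood at 22.4, 21.7 and 21.0 CPM with LPS alone and at 32.7, 42.6 and 40.4 CPM after rHDL. Its loaded libraries held 32.1, 31.7 and 28.9 CPM without rHDL and 18.7, 18.0 and 16.9 CPM with it. Loading and rHDL each raised it, yet with both it lay below every other library. The rHDL effects were 0.83 ± 0.10 and -0.79 ± 0.10, and the interaction was -1.62 ± 0.14 (adjusted p = 2.90e-06).

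Calr, the ER lectin chaperone calreticulin whose promoter is printed above, stood at 504, 544 and 531 CPM with LPS alone and 662, 723 and 694 CPM after rHDL. The loaded libraries held 691, 720 and 719 CPM without rHDL and 547, 520 and 491 CPM with it, so the group with both treatments overlapped LPS alone. Its interaction was -0.85 ± 0.09. Dnajc3, an inhibitor of the ER stress kinase PERK, rose by 0.43 ± 0.08 and fell by 0.59 on the log2 scale after loading, and its interaction was -1.02 ± 0.11. Creld2, a secreted ER stress protein, rose by 0.73 ± 0.09, had a value of -0.35 ± 0.09 after loading (adjusted p = 0.0803) and an interaction of -1.08 ± 0.12. Sdf2l1 and Hyou1, an ER chaperone cofactor and a chaperone of the HSP110 class, had interactions of -1.28 ± 0.13 and -1.25 ± 0.14, and both passed the test in opposite directions in the 2 loading states.

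**Figure D3:**
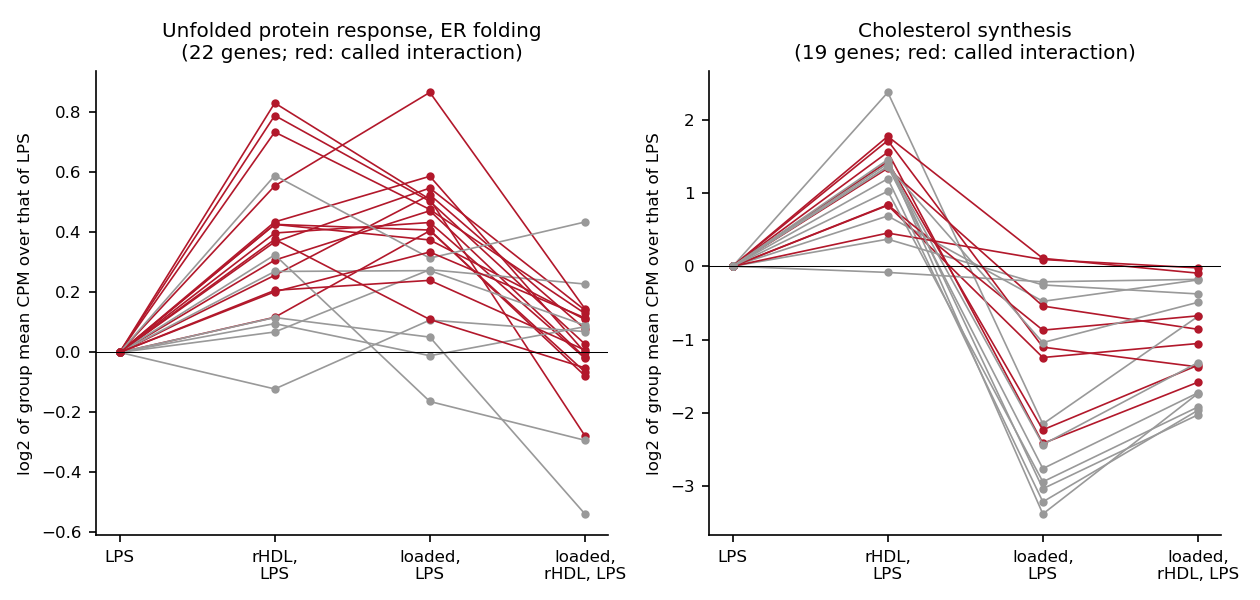
Each line is 1 gene, as the log2 ratio of its group mean CPM to that of LPS alone, over the 4 groups. Left, 22 UPR and ER folding genes: most rise with rHDL or with loading and fall back toward 0 with both. Right, 19 cholesterol synthesis genes: most rise with rHDL, fall far below 0 with loading and rise in part with both. Red lines are genes with a called interaction (15 and 8), and grey lines are the others.

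The ATF4 branch of the stress response, which serves amino acid supply, had interactions of both signs. Of 19 tested members 9 had a positive interaction and 4 a negative one, with a median of 0.42. rHDL raised 6 and lowered 6 without loading, and after loading it raised 3, Trib3, Chac1 and Slc7a5, and lowered none. None of these 3 rises was called when CL_Ctrl_LPS 1, 2 or 3 was left out. Chac1, which degrades glutathione, stood at 21.7, 25.0 and 25.2 CPM with LPS alone and 19.8, 15.5 and 15.6 CPM after rHDL. After loading the values were 20.1, 20.7 and 17.5 CPM without rHDL and 31.0, 28.8 and 27.1 CPM with it, above all 9 other libraries. Its interaction was 1.07 ± 0.16 (adjusted p = 0.000211). The interactions of Slc7a5, an amino acid transporter, and Trib3, a pseudokinase, were 0.79 ± 0.14 and 0.67 ± 0.14. Nupr1 and Sesn2, a stress-induced nuclear protein and a leucine sensor, had 1.76 ± 0.17 and 1.09 ± 0.14.

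Gdf15, a stress cytokine of the TGF-beta family (chromosome 8, 70629394 to 70631635), had the smallest interaction p among negative values. It stood at 88.1, 124 and 114 CPM with LPS alone and at 916, 913 and 966 CPM after rHDL. The loaded groups held 87.5, 110 and 90.6 CPM without rHDL and 78.1, 84.6 and 72.8 CPM with it. The 3 libraries with rHDL and no loading were far above the other 9, and the loaded rHDL libraries lay just below the 6 without rHDL. rHDL raised Gdf15 by 3.10 ± 0.12 without loading, its value was -0.29 ± 0.12 after loading, and the interaction was -3.39 ± 0.16 (adjusted p = 5.48e-08). The other 3 negative members were Phgdh, which starts serine synthesis (-1.55 ± 0.29), the cystine transporter Slc7a11 (-0.81 ± 0.21) and Ppp1r15a, a regulatory subunit of the phosphatase that acts on eIF2alpha (-0.97 ± 0.11).

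Among 14 cytosolic heat shock genes 2 interactions were positive and 3 (Hsp90aa1, Hspd1, Hspa4l) negative, against 16.0% and 14.2% of all genes. Hspa1a and Hspa1b encode near-identical inducible HSP70 proteins, so reads may be split between them. Hspa1a fell from 48.4, 73.6 and 78.1 CPM to 5.37, 4.52 and 4.21 CPM without loading, and from 52.4, 68.6 and 73.0 CPM to 19.1, 15.2 and 18.6 CPM after it. The rHDL effects were -3.82 ± 0.20 and -1.87 ± 0.17 on the log2 scale, both called, with interactions of 1.95 ± 0.27 for Hspa1a and 1.75 ± 0.27 for Hspa1b. The list's median interaction was 0.02 and changed sign in 7 of the 23 alternative settings.

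The NRF2 genes, which supply glutathione and thioredoxin, had 12 negative interactions and 1 positive one among 22 tested. rHDL raised 12 without loading (median 0.48), and after loading it raised none and lowered 1, the heme oxygenase gene Hmox1, with a median of 0.08. With DESeq2, and likewise with no low-count filter, it raised 4 and lowered 1 after loading. Srxn1, which restores peroxiredoxins, stood at 138, 154 and 145 CPM with LPS alone and at 360, 432 and 429 CPM after rHDL. In loaded cells it stood at 147, 161 and 148 CPM without rHDL and at 146, 168 and 159 CPM with it, and these 6 libraries overlapped. Its interaction was -1.43 ± 0.12 (adjusted p = 1.88e-06). Gclm, a subunit of the enzyme that limits glutathione synthesis, had an interaction of -1.20 ± 0.15. The exception was Gsr, glutathione reductase, at 0.45 ± 0.11, which was not called when libraries were scaled by totals (adjusted p = 0.0533).

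Lysosomal genes rose with rHDL in unloaded cells. Of 27 tested, 16 had a negative interaction and 1 a positive one. rHDL raised 16 and lowered 3 without loading (median 0.45), and changed none after it (median -0.11). After loading it lowered 3 with DESeq2 and 2 with no low-count filter. Atp6v0d2, a subunit of the lysosomal proton pump, stood at 91.0, 96.5 and 88.0 CPM with LPS alone and at 181, 211 and 210 CPM after rHDL, against 101, 128 and 143 CPM after loading and 83.2, 95.1 and 87.9 CPM after loading and rHDL. Its interaction was -1.61 ± 0.15. Neu1, the lysosomal sialidase, had -1.0 ± 0.11. The positive gene was Ctsa, a lysosomal carboxypeptidase, at 1.86 ± 0.49. Only 2.2% of its exon bases are its own in the annotation and it stood at 0.301 to 2.28 CPM, so it was measured in small part.

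Chemokines had interactions of both signs. Of 20 tested, 9 interactions were negative and 5 (Ccl8, Ccl12, Ccl24, Cxcl9, Cxcl10) positive. rHDL raised 11 and lowered 6 without loading, and changed none after it. With no low-count filter it lowered 1 after loading. Cxcl1, a neutrophil attractant (chromosome 5, 90891245 to 90893115), stood at 321, 434 and 337 CPM with LPS alone and at 1850, 2540 and 2370 CPM after rHDL. Loaded libraries held 315, 436 and 374 CPM without rHDL and 269, 317 and 279 CPM with it. The unloaded rHDL libraries lay above the other 9, and the interaction was -3.01 ± 0.20 (adjusted p = 3.94e-07).

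Cxcl2, a close relative, rose by 2.21 ± 0.10 without loading and had a value of -0.23 ± 0.10 after it, with an interaction of -2.44 ± 0.14. Ccl2, the main monocyte attractant, stood at 147 to 211 CPM with LPS alone, at 823 to 863 CPM after rHDL, at 235 to 274 CPM after loading and at 157 to 262 CPM after both. Its interaction was -2.59 ± 0.22. Ccl17, a ligand of CCR4, had -3.12 ± 0.26. On the other side stood Ccl24, an eosinophil attractant (2.99 ± 0.23), and 2 ligands of CXCR3, Cxcl9 (2.28 ± 0.42) and Cxcl10 (1.32 ± 0.33). Cxcl10 stood at 6170 to 9230 CPM with LPS alone, 3040 to 4920 CPM after rHDL, 4990 to 7030 CPM after loading and 4820 to 9830 CPM after both, and both loaded groups overlapped LPS alone. The interaction of Ccl5 was 0.42 ± 0.17 and did not pass (adjusted p = 0.0701).

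Cytokines divided in the same manner, with 6 positive and 6 negative interactions among 19. After loading rHDL changed none of them in this fit. With DESeq2, and likewise with no low-count filter, it raised 5 and lowered 1 after loading, so the absence of calls is not firm. Il12b, the shared subunit of IL-12 and IL-23, stood at 171, 183 and 175 CPM with LPS alone, 422, 422 and 448 CPM after rHDL, 327, 343 and 293 CPM after loading and 267, 218 and 277 CPM after both. Loading raised it too. The rHDL effect was 1.29 ± 0.09 without loading and -0.34 ± 0.09 after it (adjusted p = 0.0961). The interaction was -1.63 ± 0.12 (adjusted p = 9.02e-07). Il23a, the other chain of IL-23, had -2.20 ± 0.48. Csf2, the growth factor GM-CSF, rose from 1.81, 3.54 and 1.85 CPM to 14.3, 27.5 and 22.8 CPM without loading. Its loaded libraries held 1.88, 6.12 and 3.27 CPM without rHDL and 2.07, 2.92 and 1.11 CPM with it, and its interaction was -3.99 ± 0.61.

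Oncostatin M and its receptor had interactions of opposite sign. Osm, the cytokine, rose by 1.61 ± 0.12 without loading and had a value of -0.03 ± 0.13 after it, with an interaction of -1.63 ± 0.17. Osmr, the receptor, stood at 44.0, 32.2 and 39.0 CPM with LPS alone and 5.18, 3.69 and 3.39 CPM after rHDL. Its loaded libraries held 14.9, 9.28 and 11.9 CPM without rHDL and 17.5, 17.5 and 21.5 CPM with it. Its interaction was 3.85 ± 0.26 (adjusted p = 3.94e-07). Il19, a cytokine of the IL-10 family, had 3.35 ± 0.31.

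Il10, the main anti-inflammatory cytokine, stood at 246, 278 and 295 CPM with LPS alone, 243, 167 and 172 CPM after rHDL, 121, 127 and 125 CPM after loading and 184, 173 and 152 CPM after both. It fell by 0.49 on the log2 scale with rHDL and no loading, and its value after loading was 0.45 ± 0.13 (adjusted p = 0.125). The interaction was 0.94 ± 0.18 (adjusted p = 0.00112). For 3 other cytokines often used as readouts the interaction did not pass. Il6 stood at 444 to 661 CPM with LPS alone, 540 to 723 CPM after rHDL, 436 to 530 CPM after loading and 377 to 680 CPM after both, and its interaction was -0.09 ± 0.27. Il1b rose by 0.30 ± 0.08 without loading and had a value of 0.29 ± 0.08 after it (adjusted p = 0.112), with an interaction of -0.02 ± 0.11. Both signs changed under some settings. Tnf had -0.48 ± 0.39, but 2.9% of its exon bases are its own in the annotation, so it was measured in small part (2.85 to 6.10 CPM).

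The interferon response had the highest share of called members among lists of more than 10 tested genes. Of 36 tested, 33 had a positive interaction and none a negative one, against 16.0% and 14.2% of all genes. rHDL lowered 34 without loading (median -0.70), and after loading none passed the test in this fit (median 0.19). Some were raised after loading with a replicate block, as given in the last section. Loading itself lowered 4. Oas3, an antiviral sensor of double-stranded RNA, stood at 1260, 981 and 1150 CPM with LPS alone, 623, 458 and 567 CPM after rHDL, 873, 729 and 873 CPM after loading and 952, 850 and 1110 CPM after both. Both loaded groups lay between the unloaded ones or overlapped LPS alone, and the interaction was 1.28 ± 0.18 (adjusted p = 0.000138). Oas2 had 1.01 ± 0.13.

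The receptor subunit Ifnar1 had an interaction of 0.94 ± 0.09, falling from 721, 718 and 691 CPM to 392, 419 and 403 CPM without loading. The 3 members that were not called were Ifnb1, Irf1 and Irf9. Ifnb1, the cytokine that drives the response, stood at 1.45 to 1.81 CPM with LPS alone and 1.60 to 2.40 CPM after rHDL, and its interaction was 0.12 ± 0.51 (adjusted p = 0.886), a sign that changed in 3 alternative settings. Irf1, a transcription factor induced by interferon, had -0.25 ± 0.30, with 36.4% of its exon bases its own.

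**Figure D4:**
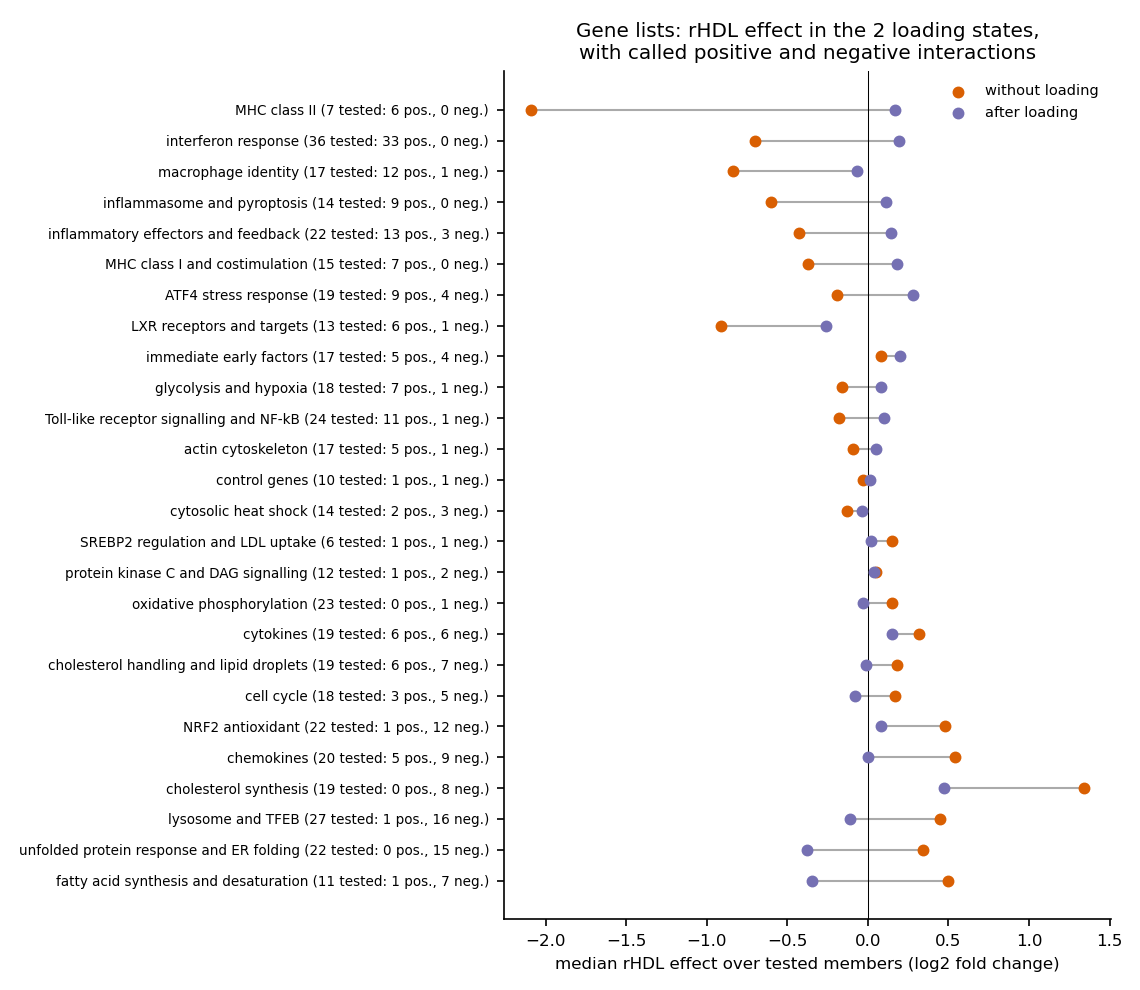
Each row is a gene list, with the median rHDL effect (log2 fold change) over its tested members without loading (orange) and after loading (purple). Counts in the labels give tested genes and called positive and negative interactions. The widest gaps between the points are those of MHC class II (-2.09 and 0.17), interferon response (-0.70 and 0.19) and cholesterol synthesis (1.34 and 0.47).

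Genes that respond to LPS were looked at through the other count table, which shares no library with the 12. In it LPS raised 1538 of 9576 genes by at least 1 on the log2 scale (16.1%) and lowered 1840 (19.2%). Of the raised genes 1497 were tested for the interaction, and 689 of them (46.0%) were positive and 121 (8.08%) negative. Their median rHDL effect was -0.30 without loading and 0.11 after it. Of 1373 tested genes that LPS lowered, 93 (6.77%) were positive and 243 (17.7%) negative, with medians of 0.14 and -0.09. The 5895 other genes had 10.2% positive and 15.3% negative calls.

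**Figure D5:**
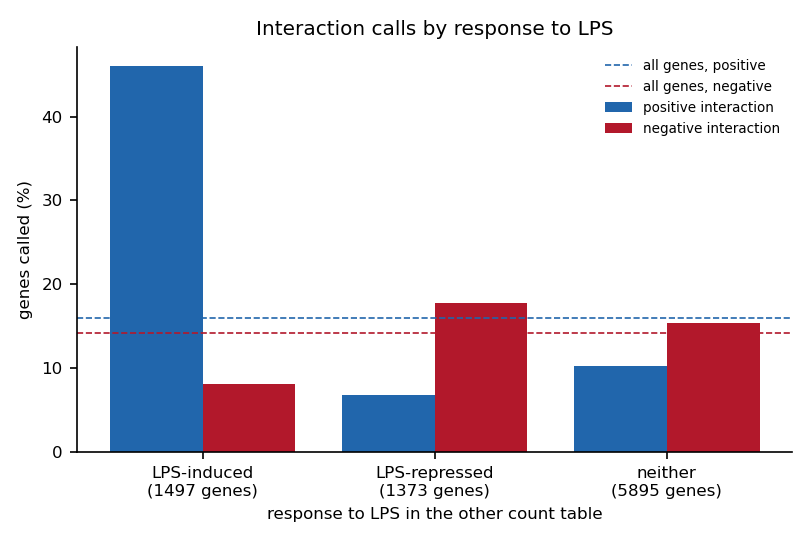
Bars give the share of genes with a called positive (blue) or negative (red) interaction, in percent, by the response to LPS in the other table. Dashed lines give the shares over all 8965 genes (16.0% and 14.2%). The blue bar of LPS-induced genes stands at 46.0% and that of LPS-repressed genes at 6.77%.

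Of 24 Toll-like receptor and NF-kB genes 11 had a positive interaction and 1 a negative one, with a median of 0.21. Myd88, the adaptor of most Toll-like receptors, had 0.94 ± 0.15, with rHDL effects of -0.76 ± 0.10 and 0.18 ± 0.10. Tlr4, the LPS receptor, had 0.42 ± 0.10, which was not called with library totals (adjusted p = 0.123). The negative gene was Traf6, a ubiquitin ligase below Myd88, at -0.39 ± 0.12. It lost its call when any 1 of 7 libraries was left out: LPS_Ctrl 1 or 3, HDL_LPS 2 or 3, CL_Ctrl_LPS 1 or 2, or CL_HDL_LPS 3 (adjusted p 0.0536 to 0.0634).

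Among 22 inflammatory effectors and feedback genes 13 interactions were positive and 3 negative. The negative ones were Dusp4, a phosphatase of MAP kinases (-2.12 ± 0.24), the cyclooxygenase Ptgs2 (-0.45 ± 0.10) and the adhesion molecule Icam1 (-0.52 ± 0.09). Dusp2, a phosphatase of the same family, had 1.09 ± 0.14, so the 2 phosphatases had interactions of opposite sign. Vcam1, another adhesion molecule, had 1.07 ± 0.14. Nos2, the inducible nitric oxide synthase, had 0.41 ± 0.10, which was not called with library totals (adjusted p = 0.0735). Of 14 inflammasome genes 9 were positive and none negative. Nlrc5, a NOD-like receptor that also induces MHC class I, had 1.08 ± 0.15.

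MHC class II genes had the widest gap between loading states of the lists drawn in the plot of list medians. Of 7 tested, 6 had a positive interaction (median 2.23), and rHDL lowered 6 without loading (median -2.09) and none after it (median 0.17). H2-Aa, the alpha chain of I-A (chromosome 17, 34282751 to 34287771), stood at 987, 765 and 880 CPM with LPS alone and at 150, 77.7 and 96.7 CPM after rHDL. After loading the values were 747, 488 and 714 CPM without rHDL and 842, 617 and 730 CPM with it. The unloaded rHDL libraries lay below the other 9 and the loaded groups overlapped. The interaction was 3.19 ± 0.30 (adjusted p = 4.63e-06). H2-Ab1 and H2-Eb1 had 2.66 ± 0.28 and 3.45 ± 0.32. Cd74, the invariant chain, had 2.23 ± 0.24, with 13.6% of its exon bases its own. Of 15 genes of MHC class I and costimulation 7 were positive and none negative, and Cd86, a ligand of CD28, had 1.82 ± 0.25.

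Most macrophage identity genes fell with rHDL in unloaded cells, beside the lower summed level of macrophage markers given above, in which Lyz2 weighs most. Of 17 tested, 12 had a positive interaction and 1 a negative one, and rHDL lowered 13 without loading (median -0.84) and none after it (median -0.07). C1qa, a chain of complement C1q, stood at 657, 592 and 707 CPM with LPS alone, 162, 101 and 111 CPM after rHDL, 903, 749 and 850 CPM after loading and 801, 597 and 656 CPM after both. Its interaction was 2.10 ± 0.21. Fcgr1, the high-affinity IgG receptor, had 2.79 ± 0.31, and Csf1r, the receptor for the growth factor CSF1, had 0.88 ± 0.09. Maf, a transcription factor of resident macrophages, had 1.55 ± 0.13. Cd68, a lysosomal glycoprotein used as a macrophage marker, was the exception at -0.59 ± 0.11. It rose from 316, 348 and 357 CPM to 461, 500 and 497 CPM without loading, so the identity markers did not all fall.

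Markers of other cells were few. Of 3 tested neutrophil markers S100a8 (1.65 ± 0.32) and Mmp8 (1.12 ± 0.33) had positive interactions, and Mmp8 was not called without HDL_LPS replicate 3 (adjusted p = 0.0521). Both tested markers of the mast, erythroid and megakaryocyte list, the platelet chemokines Ppbp (3.30 ± 0.54) and Pf4 (0.75 ± 0.22), were positive. Another 6 on that list, Kit among them, were at 0, with the limit on such values given above. Pf4 lost its call without any 1 of 4 libraries: LPS_Ctrl 3, HDL_LPS 2 or 3, or CL_Ctrl_LPS 3 (adjusted p 0.0513 to 0.0560). Of 5 dendritic markers Bst2 (0.77 ± 0.21) was positive and Itgax (-0.85 ± 0.29) negative, and of 3 stromal markers Vwf (-1.53 ± 0.17) was negative. CL_Ctrl_LPS replicate 3 held 156 CPM of Itgax against 67.6 to 115 CPM in the other 11 libraries. Without it the interaction was -0.47 (adjusted p = 0.0787), and the call was also lost without any 1 of 6 other libraries: LPS_Ctrl 1 or 3, HDL_LPS 2 or 3, or CL_HDL_LPS 1 or 3 (adjusted p 0.0596 to 0.0968). The 1 tested lymphoid marker was not called.

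Other lists showed smaller or mixed interactions, some in counts near the shares over all genes (16.0% positive, 14.2% negative). Of 17 immediate early genes 5 were positive (Fos, Jun, Egr1, Klf4, Klf6) and 4 negative (Egr2, Ier3, Klf10, Maff). Fos, an AP-1 subunit, had 1.47 ± 0.24, and Maff, a small Maf protein, had -1.37 ± 0.14. Of 18 glycolysis and hypoxia genes 7 were positive and 1, Ndrg1 (-0.51 ± 0.15), negative. Ndrg1 lost its call without CL_Ctrl_LPS replicate 2 or CL_HDL_LPS replicate 3 (adjusted p = 0.0585 and 0.0522). Of 23 nuclear genes of oxidative phosphorylation none was positive and 1, Cyc1 (-0.29 ± 0.09), negative, and its call was lost without any 1 of 4 libraries: LPS_Ctrl 1, HDL_LPS 3, or CL_Ctrl_LPS 2 or 3 (adjusted p 0.0501 to 0.0592). Of 18 cell cycle genes 3 were positive (Ccnd1, Ccnd2, Mcm6) and 5 negative (Mki67, Ccne1, Cdk4, Mcm3, Rrm2). Of 12 genes of protein kinase C and diacylglycerol signalling 1 was positive and 2, Prkci and Plcg2, negative. The positive one, Dgka, a kinase that removes diacylglycerol, stood at 52.8, 54.3 and 54.8 CPM with LPS alone, 19.2, 17.3 and 18.3 CPM after rHDL, 39.4, 43.3 and 44.9 CPM after loading and 42.9, 49.8 and 49.5 CPM after both, an interaction of 1.72 ± 0.11.

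Of 17 actin cytoskeleton genes 5 (Actb, Actg1, Actr2, Myh9, Wdr1) were positive and 1, the intermediate filament gene Vim (-0.85 ± 0.11), negative. Actb, often used as a reference gene, stood at 9020, 6830 and 8140 CPM with LPS alone and at 4540, 3650 and 3780 CPM after rHDL, against 7310 to 8820 CPM and 7640 to 10500 CPM in the loaded groups. Its interaction was 1.17 ± 0.18 (adjusted p = 0.000295). Of 10 control genes Actb was positive and Ppia, another common reference, negative (-0.53 ± 0.10). The list's median interaction was 0.03, and -0.14 with library totals.

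Several of the calls with the smallest p lay outside the lists. Tgfbi, an extracellular matrix protein, stood at 307, 258 and 303 CPM with LPS alone, 40.0, 28.5 and 31.5 CPM after rHDL, 272, 189 and 268 CPM after loading and 241, 217 and 244 CPM after both. The loaded groups overlapped and the interaction was 3.06 ± 0.20 (adjusted p = 3.94e-07). Mmp13, collagenase 3, stood at 2860, 3010 and 2940 CPM, 1200, 1130 and 1020 CPM, 1440, 1680 and 1540 CPM, and 2430, 2640 and 2200 CPM in the same order of groups. Either treatment lowered Mmp13, but rHDL raised it after loading by 0.64 ± 0.08, for an interaction of 2.03 ± 0.12. Tnfrsf11a, the receptor RANK, and Gda, guanine deaminase, had 1.67 ± 0.11 and 1.71 ± 0.11. Plk2, a polo-like kinase, stood at 365 to 404 CPM with LPS alone, 985 to 1010 CPM after rHDL and 243 to 300 CPM in all 6 loaded libraries, and had -1.48 ± 0.11. The interaction of Atf3, a transcription factor that curbs the LPS response, was 0.42 ± 0.17 and did not pass (adjusted p = 0.0745).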

How the data were processed

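RNA was selected with poly-dT beads from samples with an integrity number above 8, per the labels. The submitters' processing notes name cutadapt, HISAT2, featureCounts of Subread, DESeq2 and mm10; no source used here gives their versions. In the deposited tables are raw read counts per annotated transcript, which the authors did not normalise (32850 rows, 24059 symbols). Every row whose exons lie wholly within other rows (6696) was at 0, so shared reads had been left out, and genes with shared exons are measured in part. The authors' deposited comparison tables hold log2 fold changes and adjusted p-values, as in their headers.

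Counts were added up over the rows of a symbol and tested in edgeR 4.0.16 (R 4.3.3), with the filter filterByExpr at a minimum count of 10 and TMM scaling. Quasi-likelihood F tests were fitted to all 12 libraries, without a replicate block, and p-values were Benjamini-Hochberg adjusted over 8965 genes. Values after ± are SEs of log2 fold changes. CPM use TMM-scaled library sizes. The labels name no batch. The response to LPS was fitted apart, in the other table of 6 libraries.

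The members, the 31 gene lists and the tests were chosen with earlier results of these data known. Named genes followed a rule: the 12 positive and 12 negative calls with the smallest p and a mean log2 CPM of at least 3, passing over predicted genes and clones, from each list the called members with the smallest p (up to 4), and a panel of lipid and inflammatory genes. Those printed are a part of these, and some others are not reported here. Csf2, Il23a, Fcgr1, Hyou1, Chac1, Slc7a5, Trib3, Ndrg1, Fasn, Apoc2, Arl4c, Lpcat3, Cxcl9, Cyp51, Idi1, Creld2, Apoe, Irf1, Ifnb1, Phgdh, Slc7a11, Cd68, Ctsa, Gsr, Traf6, Ptgs2, Icam1 and members named only by symbol were picked after their values were seen.

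The interaction test was tested on simulated data with 8852 genes. It recovered 21 of 99 genes changed by 1.5-fold and 66 of 100 changed by 2-fold, and called 5 of 8653 unchanged genes. Far fewer genes were changed in the simulation than were called in the data, which makes its adjusted p cutoff stricter. The share recovered therefore does not carry over to these data. The 23 alternatives were DESeq2 1.42.0, its size factors, limma-voom (limma 3.58.1), library totals, 2 other count filters, a minimum of 1.5-fold, a replicate block, rows in place of genes, genes of 1 row whose exons are all their own, thinning to the smallest library, and leaving out each of 12 libraries. Promoters came from a RefSeq table of GRCm38.p6.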

Additional observations from a re-analysis of the deposited data

Results flagged for a closer look

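The rHDL effect differed between loaded and unloaded cells, by the test of the difference itself, for 2704 of 8965 genes. The genes of the results above that are among them are given here with their interactions on the log2 scale, and no cause was tested.

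For LXR targets and other lipid genes the effect of rHDL was higher, or less negative, after loading: Abca1 (2.77), Abcg1 (1.94), Mylip (1.11), Pltp (1.19), Apoe (1.15), Apoc2 (2.60), Ch25h (1.49), Dgat2 (1.68) and Acsl1 (0.87). In sterol and fatty acid synthesis and its regulation the effect was lower after loading for Scd1 (-4.01), Insig1 (-1.36), Sqle (-0.72), Lss (-1.96), Fads1 (-1.59) and Fasn (-1.99). ER folding genes had negative values: Dnajb9 (-1.62), Sdf2l1 (-1.28), Calr (-0.85), Dnajc3 (-1.02), Creld2 (-1.08) and Hyou1 (-1.25). In the ATF4 response the positive genes were Nupr1 (1.76), Sesn2 (1.09), Chac1 (1.07), Slc7a5 (0.79) and Trib3 (0.67), and the negative ones Gdf15 (-3.39), Phgdh (-1.55), Slc7a11 (-0.81) and Ppp1r15a (-0.97). Antioxidant and lysosomal genes with negative values were Srxn1 (-1.43), Gclm (-1.20), Atp6v0d2 (-1.61) and Neu1 (-1.0). Those with positive values, heat shock genes included, were Gsr (0.45), Ctsa (1.86), Hspa1a (1.95) and Hspa1b (1.75). Negative chemokines and cytokines were Cxcl1 (-3.01), Cxcl2 (-2.44), Ccl2 (-2.59), Ccl17 (-3.12), Il12b (-1.63), Il23a (-2.20), Csf2 (-3.99) and Osm (-1.63). On the positive side were Ccl24 (2.99), Cxcl9 (2.28), Cxcl10 (1.32), Il19 (3.35), Il10 (0.94) and Osmr (3.85). Genes of interferon and antigen presentation were positive: Ifnar1 (0.94), Oas2 (1.01), Oas3 (1.28), Bst2 (0.77), H2-Aa (3.19), H2-Ab1 (2.66), H2-Eb1 (3.45), Cd74 (2.23), Cd86 (1.82) and Nlrc5 (1.08). Signalling genes and effectors were positive for Tlr4 (0.42), Myd88 (0.94), Nos2 (0.41), Vcam1 (1.07), Dusp2 (1.09), Fos (1.47) and Dgka (1.72), and negative for Traf6 (-0.39), Ptgs2 (-0.45), Icam1 (-0.52), Dusp4 (-2.12), Maff (-1.37) and Plk2 (-1.48). Among genes of macrophage identity, positive values were those of C1qa (2.10), Maf (1.55), Fcgr1 (2.79) and Csf1r (0.88). Among markers of other cells, positive values were those of S100a8 (1.65), Mmp8 (1.12), Ppbp (3.30) and Pf4 (0.75). Among markers of macrophages and other cells, negative values were those of Cd68 (-0.59), Itgax (-0.85) and Vwf (-1.53). The last positive ones were Tgfbi (3.06), Mmp13 (2.03), Tnfrsf11a (1.67), Gda (1.71) and Actb (1.17). The last negative ones were Ppia (-0.53), Vim (-0.85), Cyc1 (-0.29) and Ndrg1 (-0.51).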

How the results depend on the processing

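The interaction counts kept within 1.5 times of 2704 in the alternatives other than the minimum of 1.5-fold, which left 592 genes (395 positive, 197 negative). The direction split moved with library totals, to 2124 negative calls. The 12 fits that each left out 1 library gave 2112 to 2822. DESeq2 called 2490, which held 2434 of the 2704 (90.0%). Thinning to the smallest library gave 2547, which held 2432 of the 2704 (89.9%).

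The counts for rHDL after loading were less stable: 170 with DESeq2, 176 with no low-count filter, 5 with the minimum of 1.5-fold, and 30 to 123 when 1 library was left out, against 91. They fell by more than 1.5 times without CL_Ctrl_LPS 1, 2 or 3 (46, 30 and 35) and without CL_HDL_LPS 2 or 3 (55 and 56). For rHDL without loading the minimum of 1.5-fold left 658 of 3275, and library totals gave 2507 raised and 1273 lowered. For loading without rHDL it left 32 of 768, and leaving out 1 library gave 350 to 1066.

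Replicate numbers match across groups, but the labels do not say that they mark a shared source. Same-numbered libraries deviated together in 13 of 18 pairs (correlation above 0.1, range -0.0302 to 0.436, median 0.1805), against -0.338 to 0.11 (median -0.0858) for different numbers, and 10 of 12 libraries correlated best with their own number. Deviations were taken from group means, so higher values for the same number push those for different numbers down. The values for different numbers are not separate evidence. All pairs of replicates 1 and 2 were above 0.1, and the 5 that were not were among replicate 3. This is a hint from the data, not the design, and since not every pair passed, the numbers were not taken to pair the libraries. With a replicate block the interaction had 3443 calls (1752 positive, 1691 negative) that included the 2704, rHDL without loading 4010, rHDL after loading 486 (277 raised, 209 lowered) and loading 1651. The 2 loading states then shared 347 calls, 259 of them opposite, and after loading rHDL raised 9 of 36 interferon genes and 5 of 19 cytokines and lowered 12 of 22 UPR genes and 4 of 27 lysosomal genes. In the fit as reported it changed none of the interferon genes, cytokines or lysosomal genes. DESeq2, the fit with no low-count filter and the block each gave 5 of 19 cytokines raised and 1 lowered after loading.

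Of 95 named genes with a called interaction, 24 lost the call with the minimum of 1.5-fold, 6 without a library (Traf6, Mmp8, Itgax, Pf4, Cyc1, Ndrg1) and 5 in another alternative: Gsr, Tlr4 and Nos2 with library totals, Itgax with limma-voom (adjusted p = 0.051) and Cyc1 with no low-count filter (0.0797). None changed sign. Ccl5 and Atf3, not called, passed with no low-count filter, with the block and without some libraries, and Lpcat3 with library totals, thinning, the block and without some libraries. Uncalled values near 0 changed sign. Cyp51 gave -0.12 with library totals and -0.03 to 0.15 when 1 library was left out. Il1b gave 8.2e-05 with DESeq2, 0.0037 with its size factors and -0.08 to 0.05 when 1 library was left out. Il6 gave -0.31 to 0.11 when 1 library was left out. Ifnb1 gave -0.05 with library totals and -0.26 to 0.51 when 1 library was left out. The causes were not tested.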
